A study of Arabidopsis thaliana with 4 samples.

Results

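Class B and C heat shock factors of Arabidopsis thaliana were measured in seedlings labelled as the hsfb1 hsfb2b double mutant and in wild-type seedlings, both after a short mild heat treatment. The family comprised HSFB1, HSFB2A, HSFB2B, HSFB3, HSFB4 and HSFC1, taken as every non-control array probe whose systematic name was one of their 6 loci, of 25665 loci with a probe. Each of the 6 genes had 1 probe, and all 6 passed the brightness filter, as did 19314 genes in all. Both genotypes were in the Columbia-0 ecotype, were 5 d old whole seedlings grown at 23 °C on sucrose medium, and had spent 30 min in water at 32 °C. RNA of many pooled mutant plants and many pooled wild-type plants from one shared plate was hybridised together on each of 4 two-colour oligonucleotide arrays, which the labels call biological replicates. The mutant was in Cy3 on replicates 1 and 3 and in Cy5 on replicates 2 and 4. Unheated seedlings were not analysed here, so no value below is a response to heat, and the sources used here do not describe the lesions.

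Heat shock factors bind promoter elements made of inverted GAA repeats, as trimers, through a conserved DNA-binding domain. Class A factors carry an activation domain and switch on chaperone genes in heat. Class B factors lack that domain, and most of them carry a short repressor motif instead. HSFB1 and HSFB2B are induced by heat and known as repressors of heat-inducible factors, HSFB2A is their close relative, HSFB4 is the root patterning regulator SCHIZORIZA, and HSFC1 is the single class C factor of Arabidopsis.

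HSFB1 (AT4G36990) and HSFB2B (AT4G11660), the mutated genes, were each reduced in the double mutant to between 0.969% and 1.59% of the wild-type signal on every array, in the scanner software's processed signals. Both were at least 2-fold lower in the fit and past the threshold, as were 0.057% of all genes, and 0.166% were at least 2-fold different in either direction. The 4 other genes stayed within 81.6% and 125% of wild type on single arrays, and none of them passed the test. Across all genes tested 29.8% differed between the genotypes, 16.6% higher and 13.1% lower in the mutant, so the 0 of 4 among the intact family members is to be read against a background in which small differences were common. At an unadjusted p under 0.05 the limma count was 1 of 4, HSFB4, and at least 29.8% of all genes were under it too. The fitted change was larger in size for 99% of all genes than for HSFB2A, for 64.9% than for HSFB3, for 57.8% than for HSFC1 and for 43.6% than for HSFB4.

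HSFB1 had processed signals in the wild type of 39489, 47965, 39396 and 41975 arbitrary units on replicates 1 to 4. In the double mutant they were 383, 605, 422 and 667. The groups did not overlap, and the mutant was the dimmer channel on all 4 arrays whichever dye it carried. After background correction and loess normalization the single arrays gave log2 ratios of mutant over wild type of -5.72, -5.84, -5.80 and -5.80. The fitted ratio of HSFB1 was -5.79 ± 0.03 (SE over 4 arrays), a 55.4-fold reduction with an adjusted p of 2.2e-10 in limma. No other tested gene had a larger change in either direction in this fit. In the fit to the processed signals HSFB1 was at -6.38, and MRD1, described below, was lower at -6.97. The mutant channel was still 7.55 to 18.7 times its local background, so some hybridisation remained at this probe. Its wild-type spot was read from the scanner's low-gain scan and scaled up on all 4 arrays, and its mutant spot was not. Where the probe lies relative to the mutation was not analysed here.

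HSFB2B had wild-type processed signals of 7249, 7118, 5256 and 6462 units on replicates 1 to 4. The mutant signals were 90.9, 93.6, 70.5 and 96.4 units, again without overlap between the genotypes. Its log2 ratios on the 4 arrays after loess were -4.38, -4.65, -4.57 and -5.12, with replicate 4 the lowest. In the processed signals they were -6.32, -6.25, -6.22 and -6.07, with replicate 4 the highest. The fitted ratio after loess was -4.68 ± 0.07 (SE, n = 4 arrays), a 25.6-fold reduction with a limma adjusted p of 1.7e-07. In that fit, which adds an offset of 50, 1 gene had a larger change. The fit to the processed signals, without the offset, gave a larger reduction of HSFB2B, at -6.21. There HSFB1 (-6.38) and MRD1 (-6.97) were both lower. The mutant channel stood at only 2.50 to 5.11 times its local background.

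**Figure D1:**
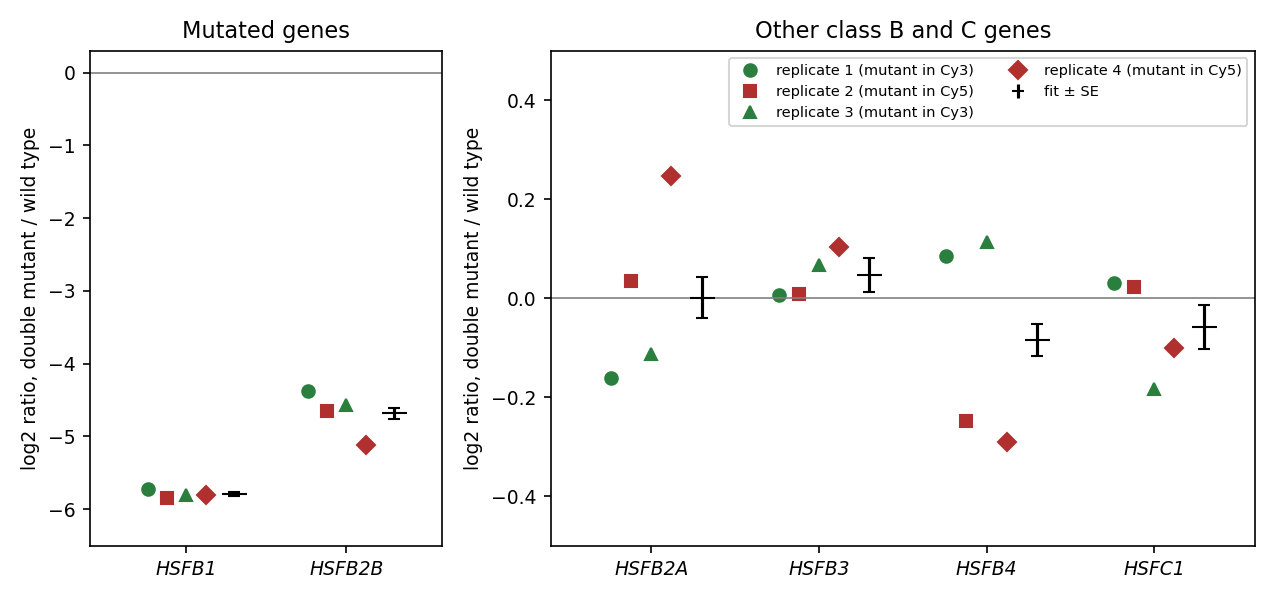
Log2 ratio of double mutant over wild type for each of the 6 genes, with the mutated pair at the left and the intact genes at the right on an axis of narrower range. Points are single arrays, coloured by the dye of the mutant, and black bars are the fitted ratio ± SE over 4 arrays. The mutated pair lies between -5.84 and -4.38, and the array values of HSFB4 and of HSFB2A change sign with the dye, in opposite directions.

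Whether the reductions of the mutated pair differed in size depended on the scale. In the loess-normalized ratios HSFB1 was lower than HSFB2B on 4 of 4 arrays, by a mean of -1.12 ± 0.295 log2 (SD, n = 4 arrays). In the processed signals, to which no offset had been added, the means were -6.38 and -6.21, a difference of -0.167 ± 0.22 (SD), with HSFB1 lower on 3 of 4 arrays. The two-sided exact sign-flip permutation test gave p = 0.125 for the first and 0.375 for the second, and 0.125 is the smallest value that 4 arrays allow. The mutant's signal above local background was 72 to 230 units at the HSFB2B probe and 288 to 998 at the HSFB1 probe. With an offset of 0 in place of 50 the fitted ratios were -5.92 for HSFB1 and -4.98 for HSFB2B, and without background correction they were -6.04 and -5.27, so HSFB1 stayed the lower of the pair under both. Why the processed signals gave a smaller gap was not tested. The residual percentages overlapped, 0.969% to 1.59% for HSFB1 and 1.25% to 1.49% for HSFB2B. A difference between the reductions was therefore not shown.

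**Figure D2:**
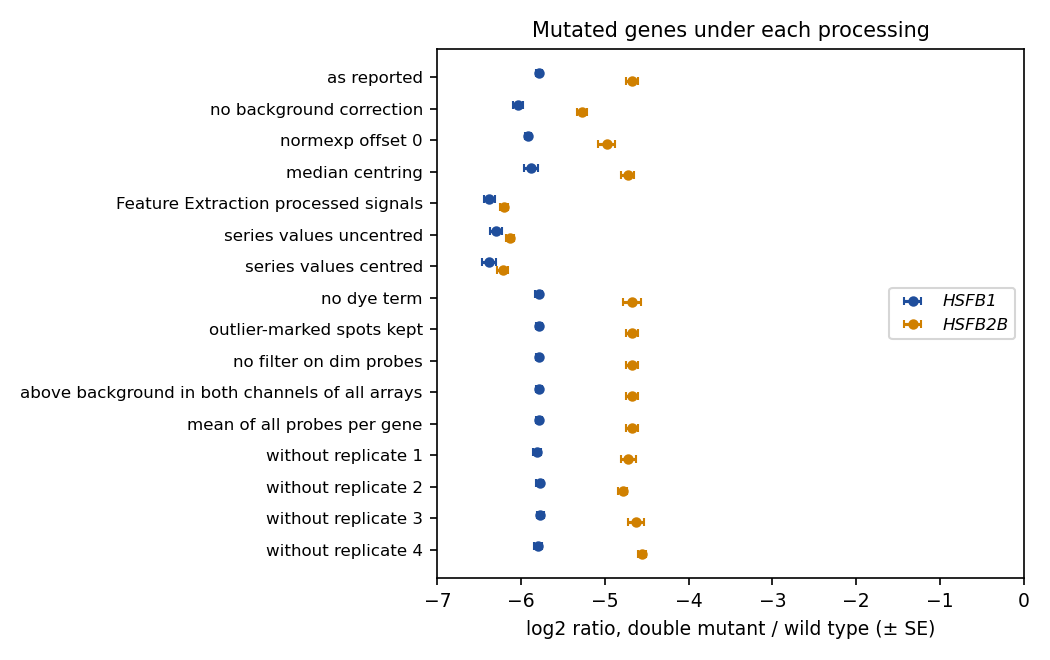
Fitted log2 ratio ± SE of HSFB1 and HSFB2B (x axis, double mutant over wild type) under the reported processing and each alternative (y axis). HSFB1 moves between -6.38 and -5.77 and HSFB2B between -6.22 and -4.56, and the pair comes closest in the processed signals and the deposited series values.

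HSFB2A (AT5G62020), the nearest relative of HSFB2B, had a bright probe whose levels overlapped between the genotypes. Its processed signals were 26819, 24894, 24162 and 23009 units in the wild type on replicates 1 to 4. The mutant gave 25529, 24570, 24180 and 24616 units, within the wild-type range. The log2 ratios after loess were -0.16, 0.03, -0.11 and 0.25, so replicates 1 and 3 were low and replicates 2 and 4 high, which is the split by dye. The fitted ratio was 0.00126 ± 0.04 (SE, n = 4 arrays, limma adjusted p = 0.98). The 95% confidence interval of the fit ran from -0.10 to 0.10, or from 0.935 to 1.07 times wild type. The red spot, but not the green one, came from the scaled-up low-gain scan on all 4 arrays. The dye effect at this probe was 0.14 log2 towards red (limma adjusted p = 0.058).

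HSFB4 (AT1G46264) came nearest to the threshold among the intact genes. Wild-type processed signals were 1286, 1545, 1341 and 1448 units on replicates 1 to 4, and mutant signals were 1316, 1260, 1423 and 1259 units, so the groups overlapped. The log2 ratios were 0.09, -0.25, 0.11 and -0.29. The mutant was thus higher on both arrays that carried it in Cy3 (mean 0.10) and lower on both that carried it in Cy5 (mean -0.27). The fitted ratio was -0.08 ± 0.03 (SE over 4 arrays, limma adjusted p = 0.085), and the dye effect itself passed the threshold (-0.18 log2, limma adjusted p = 0.013), as it did for 18.1% of genes. Without the dye term the SE of HSFB4 was 0.081 and its limma adjusted p was 0.57.

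HSFC1 (AT3G24520) had wild-type processed signals of 755, 855, 859 and 953 units on replicates 1 to 4. The mutant gave 831, 839, 709 and 862 units, and the groups overlapped. Its log2 ratios of 0.03, 0.02, -0.18 and -0.10 did not sort by dye. They gave a fitted -0.06 ± 0.05 (SE, n = 4 arrays, limma adjusted p = 0.37), with an interval from 0.894 to 1.03 times wild type. Leaving out single replicates moved the ratio of HSFC1 between -0.111 (without replicate 1) and -0.00424 (without replicate 3). In the RefSeq annotation of assembly TAIR10.1 the gene overlaps the long non-coding RNA AT3G24518, which had no probe here.

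HSFB3 (AT2G41690) was the dimmest probe relative to its background. Its processed signals were 26.6, 22.4, 39.4 and 34.1 units in the wild type and 29.6, 26.9, 36.5 and 42.4 in the mutant on replicates 1 to 4. The mutant spot was 2.01 to 3.02 times its local background, which still counted as well above background in every channel. The log2 ratios were 0.00664, 0.00916, 0.07 and 0.10. All 4 were above 0, as 35.3% of genes with 4 ratios had all 4 on one side. The fitted ratio was 0.05 ± 0.03 (SE, n = 4 arrays, limma adjusted p = 0.34). In the processed signals it was 0.157 (limma adjusted p = 0.10). HSFB3 passed the threshold under 1 alternative, the deposited series values as they stood (0.24, limma adjusted p = 0.038). Those values equal the processed ratios plus a constant of 0.0812 log2 on every array, and once centred they gave 0.154 (limma adjusted p = 0.21).

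**Figure D3:**
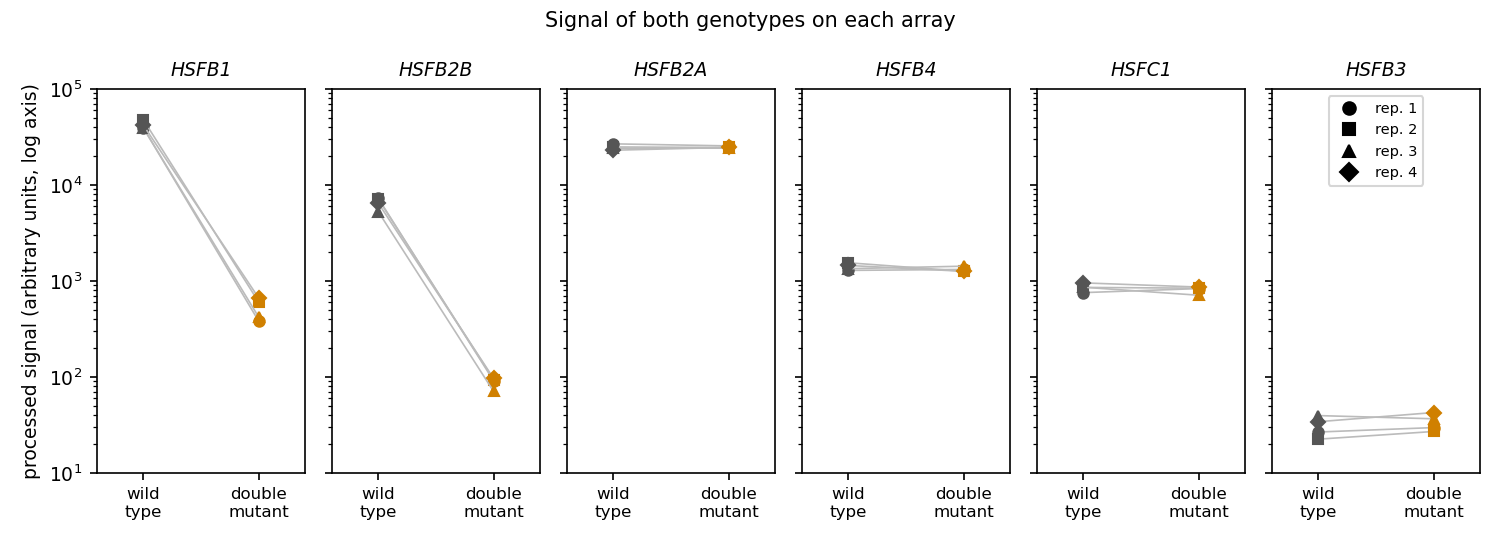
Processed signal in arbitrary units (log axis) of wild type and double mutant on each array, 1 panel per gene, with lines joining the channels of one array. HSFB1 and HSFB2B drop from 5256 units or more to 667 or less, while the other 4 genes keep overlapping levels. Heights are not comparable between panels, since each gene has its own probe.

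The class A activators were read on the same arrays. Of 15 class A genes tested, 3 were higher, 1 was lower and 11 did not pass (26.7% called, against 29.8% of all genes), with a median log2 ratio of 0.06 against 0.000646 over all genes. HSFA7B was between 0.313 and 0.811 on single arrays and fitted at 0.56 ± 0.03 (SE over 4 arrays), with a limma adjusted p of 7.7e-05. Its mean was 0.785 where the mutant was in Cy3 and 0.336 where it was in Cy5. The dye effect at its probe was -0.224 log2 (limma adjusted p = 0.0096). HSFA6B was between 0.268 and 0.883 on single arrays and fitted at 0.48 ± 0.06, with a limma adjusted p of 0.0017. HSFA6B reached 1.16 in the processed signals. HSFA8 stood at 0.16 ± 0.03 (limma adjusted p = 0.011), a call lost under 5 of 15 alternatives, including without replicate 3 (0.143). It too had a dye effect, of -0.118 log2 (limma adjusted p = 0.046). HSFA2, the heat-induced activator, ran from -0.545 to 0.175 on single arrays, with a mean of -0.43 where the mutant was in Cy3 and 0.114 where it was in Cy5. Its fitted ratio was -0.16 ± 0.05 (SE over 4 arrays, limma adjusted p = 0.038), with a dye effect of 0.272 log2 (limma adjusted p = 0.013). Without the dye term the adjusted p of HSFA2 was 0.46. The HSFA2 call was lost under 7 alternatives, including without replicate 3 (-0.10) and without replicate 4 (-0.127). Intervals of all 4 intact class B and C genes lay between -0.162 and 0.127. Those of HSFA6B and HSFA7B, the class A genes with the highest ratios, lay above 0.333. The 11 class A genes that did not pass had intervals between -0.214 (HSFA9) and 0.279 (HSFA3), a range that takes in the class B and C genes. Whether the classes differ was not tested.

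**Figure D4:**
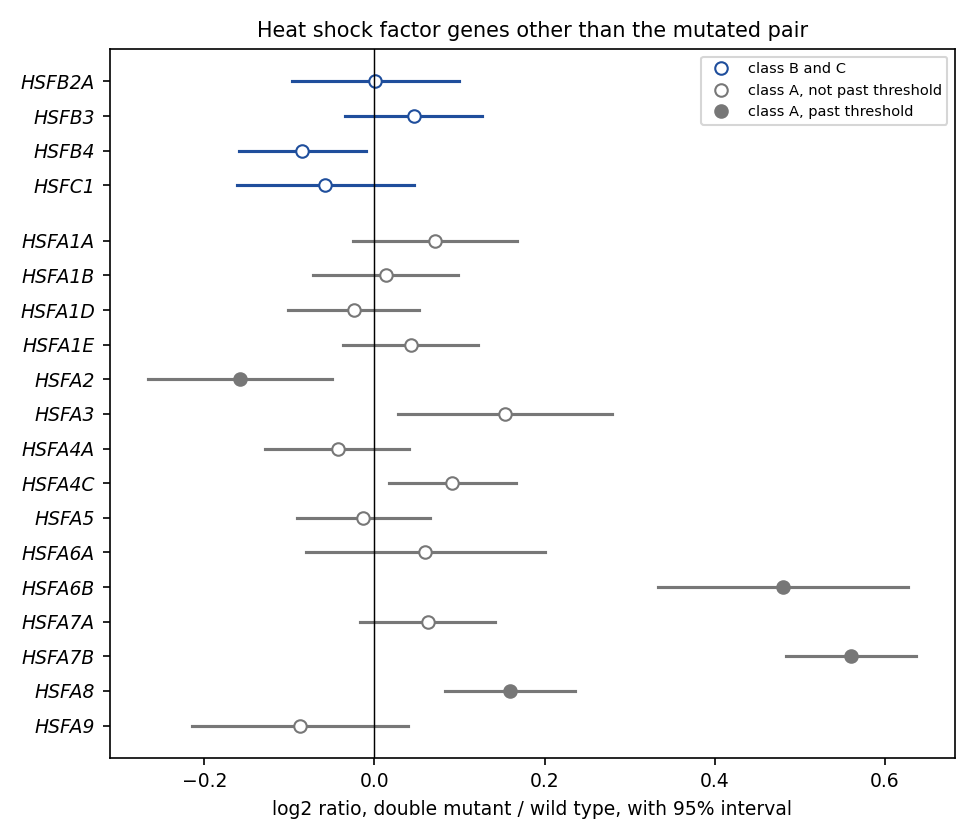
Fitted log2 ratio of double mutant over wild type with its 95% confidence interval for the 19 heat shock factor genes other than the mutated pair. Open circles did not pass the threshold. The class B and C genes lie between -0.08 and 0.05, and HSFA7B and HSFA6B stand to the right at 0.56 and 0.48.

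A short list of genes linked to HSFB1 and HSFB2B in earlier work held HSFA2, HSFA7A, the small heat shock protein gene HSP15.7 and the plant defensin genes PDF1.2A, PDF1.2B and PDF1.2C. Of 5 tested, 2 were higher, 2 were lower and 1 did not pass (80% called, against 29.8% of all genes), with a median of 0.06. PDF1.2A was between 0.264 and 0.795 on single arrays and had 0.46 ± 0.08 (SE, n = 4 arrays, limma adjusted p = 0.0043) and was 2.28 in the processed signals, with 3 of 4 wild-type channels above background. PDF1.2A thus passed the filter only through the mutant, where it is high, and with both genotypes required to be above background it was not tested and 3 members of the list were called. PDF1.2C had 0.22 ± 0.05 (limma adjusted p = 0.017), or 0.781 in the processed signals, and lost its call under 3 alternatives, including without replicate 1 (0.164). PDF1.2B was well above background in 2 mutant channels and 0 wild-type channels and was not tested. The 3 defensin genes are closely related, and how far their probes share signal was not tested. HSP15.7 was lower, at -0.46 ± 0.04 (n = 3 arrays, limma adjusted p = 0.00066). HSFA7A had 0.06 ± 0.03 (n = 4 arrays, limma adjusted p = 0.20), and HSFA2 is given above. HSP15.7 had no ratio on replicate 3, so it could not be tested when another replicate was left out. Without replicate 1 the 2 members that passed were HSFA2 and PDF1.2A, and without replicate 4 they were PDF1.2A and PDF1.2C.

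The corepressors of the TOPLESS family, which plant repressors recruit to silence promoters, did not pass the limma threshold in any of 5 cases, while 29.8% of all genes passed. At least that share of all genes had an unadjusted p under 0.05, as did 2 of these 5 corepressors. Their ratios were 0.11 ± 0.04 for TPL, -0.03 ± 0.05 for TPR1, 0.04 ± 0.04 for TPR2, -0.09 ± 0.03 for TPR3 and 0.05 ± 0.04 for TPR4 (SE, n = 4 arrays, limma adjusted p from 0.072 to 0.67). Without replicate 4, 1 of them passed.

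HSFB4 acts with other regulators of the root stem cell niche, and 9 of 10 such genes were tested. JKD, a zinc finger partner of the radial patterning factors, was higher at 0.14 ± 0.03 (SE, n = 4 arrays, limma adjusted p = 0.020). SHR, which moves from the stele to specify endodermis, was lower at -0.16 ± 0.03 (limma adjusted p = 0.012). WOX5, the quiescent centre factor, and CYCD6;1, the cyclin of formative divisions, were lower at -0.13 ± 0.04 and -0.12 ± 0.03 (limma adjusted p = 0.032 and 0.025). SCR, MGP, PLT1, PLT2 and SMB did not pass, with ratios between -0.06 and 0.05, and FEZ was well above background in 3 channels of each genotype and was not tested. The median of the list was -0.02, and 44.4% of its tested members were called against 29.8% of all genes. All 4 calls were lost without replicate 1 (JKD 0.159, SHR -0.135, WOX5 -0.154 and CYCD6;1 -0.14), and those of JKD (0.122), WOX5 (-0.112) and CYCD6;1 (-0.109) also without replicate 3, while WOX5 lost its call without replicate 2 as well (-0.102).

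Tissue markers gave the setting for these root genes. All 5 leaf and photosynthesis markers were well above background in every channel, with 1 higher and 3 lower in the mutant. CAB1 was higher (log2 ratio 0.408), and CAB2 (-0.275), RCA (-0.15) and LHCA1 (-0.162) were lower, so CAB1 and CAB2 went opposite ways. RBCS1A (-0.13) did not pass. Summed processed signals were 649000 to 882000 units in the mutant and 666000 to 945000 in the wild type. Of 5 root markers 4 were above background in every channel. Of the root markers 4 were higher and 0 lower, with sums of 4330 to 5800 units in the mutant and 3090 to 4290 in the wild type. Log2 ratios of those 4 ran from 0.118 for MYB36 to 0.522 for EXPA7. Over all genes 16.6% were higher and 13.1% lower. CEP5, the remaining root marker, was above background in 4 mutant and 0 wild-type channels. Of 5 seed storage genes 3 were above background in no channel, SESA2 was above it in 1 wild-type channel, and CRA1 was above it in every channel. In whole seedlings more root tissue and more RNA per root cell cannot be told apart, and the part of tissue makeup in the values of HSFB4 and its partners was not tested.

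The nearest protein-coding genes in the RefSeq order of assembly TAIR10.1, 5 on each side of each family member, were measured to see what lay beside the mutated loci. Of 60 such genes 39 were tested, of which 7 were higher and 5 lower (30.8% called, against 29.8% of all genes), with a median of -0.01. Beside HSFB2B 0 of 7 tested neighbours passed in limma, with ratios from -0.14 to 0.10 and 3 at an unadjusted p under 0.05. At least 29.8% of all genes were also under that unadjusted level. The gene next to HSFB2B, AT4G11670, overlaps it in that annotation, as does the long non-coding RNA AT4G05910, which had no probe, and AT4G11670 and had -0.14 ± 0.05 (SE, n = 4 arrays, limma adjusted p = 0.078), far from the -4.68 of HSFB2B itself. Beside HSFB1 the neighbours AT4G36970 and AT4G36980 had 0.16 ± 0.03 and -0.16 ± 0.03 (limma adjusted p = 0.011 and 0.013). AT4G36970 lost its call without replicate 1 (0.158) or 3 (0.168) and AT4G36980 without replicate 3 (-0.131). No tested neighbour of either mutated gene differed by more than 0.163 log2.

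**Figure D5:**
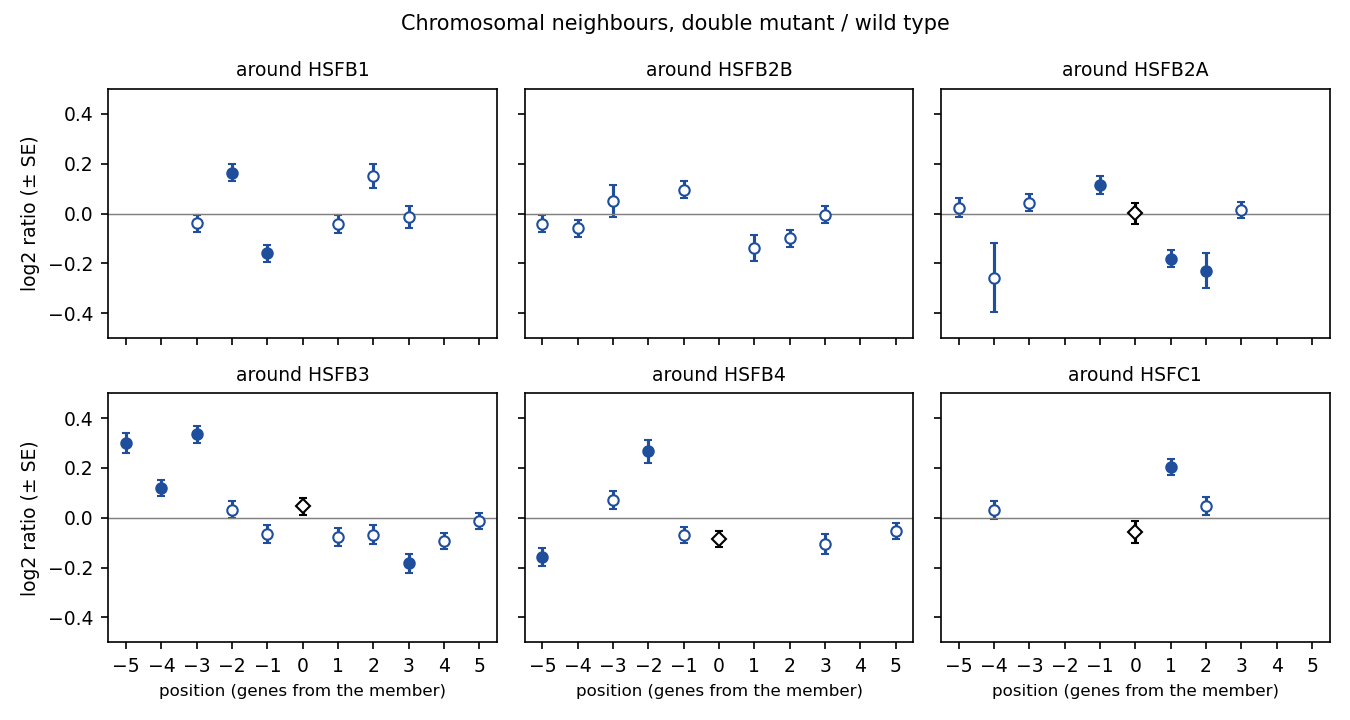
Log2 ratio ± SE (y axis) of the tested protein-coding genes within 5 positions of each family member (x axis, position in gene order), with filled circles past the threshold. Open diamonds are the 4 intact family members, and the mutated pair lies off the scale. Values around HSFB1 and HSFB2B stay between -0.159 and 0.163.

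Around the intact genes the called neighbours were likewise small. MIZ1, a gene of root hydrotropism, and AT2G41640 lay near HSFB3 and had the largest ratios among them, 0.34 ± 0.04 and 0.30 ± 0.04 (SE, n = 4 arrays, limma adjusted p = 0.00067 and 0.0018). Both kept their calls under all 15 alternatives, and the other 10 called neighbours lost theirs under 2 to 10. Also near HSFB3, AT2G41650 had 0.12 ± 0.03 and AT2G41710 -0.18 ± 0.04. Near HSFB2A, the auxin response factor gene ARF2 had 0.12 ± 0.04, AT5G62030 -0.18 ± 0.03 and the floral inhibitor gene BFT -0.23 ± 0.07. Near HSFB4, the photosystem antenna gene Lhca5 had -0.16 ± 0.04 and AT1G45688 0.27 ± 0.05 (n = 3 arrays), and AT3G24530, next to HSFC1, had 0.20 ± 0.03. BFT fell short of the threshold without replicate 1 (-0.28), 3 (-0.178) or 4 (-0.12), and ARF2 without replicate 1 (0.128), 2 (0.0831) or 3 (0.102). ARF2 had 2 probes, and with the mean of all probes per gene it also fell short (0.101, limma adjusted p = 0.23). AT2G41650 lost its call without replicate 1 (0.101), 2 (0.11) or 3 (0.137) and Lhca5 without replicate 1 (-0.153) or 3 (-0.161), while AT2G41710 (-0.169) and AT5G62030 (-0.165) lost theirs without replicate 3. Over all members' neighbours the calls went from 12 to 6 without replicate 1 and to 5 without replicate 3. AT1G45688, with ratios on 3 arrays, could not be tested when 1 of those arrays was left out, and so could not be called there.

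Genes whose 4 array ratios lay closest to those of each family member were found by the root mean square difference over arrays, among 18643 other genes with 4 ratios. HSFB1 and HSFB2B had each other and MRD1 (AT1G53480) as their closest genes. MRD1 had a fitted ratio of -4.64 ± 0.15 (SE, n = 4 arrays) and lay 0.271 log2 from HSFB2B and 1.26 from HSFB1. Its single arrays ran from -4.00 on replicate 1 to -5.47 on replicate 4, the lowest array for HSFB2B too in these ratios. In the processed signals HSFB2B was lowest on replicate 1 (-6.32) and highest on replicate 4 (-6.07). The fit to those signals put MRD1 at -6.97, below both mutated genes. For the intact genes the closest ones differed by 0.0235 log2 or less. They were FANCM and AT4G35530 for HSFB2A, AT1G55380 and AT2G31090 for HSFB3, AT5G13830 and EIP9 for HSFB4, and AT1G30550 and ACLA-3 for HSFC1. None of these 8 genes passed the limma threshold as reported, with adjusted p from 0.052 to 1, though AT5G13830 passed in the processed signals (-0.15, limma adjusted p = 0.044), and with 4 arrays many genes near 0 lie equally close.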

How the data were processed

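Each of the 4 arrays compared both genotypes of 1 replicate. The submitters' processing notes name Agilent Feature Extraction 9.1.3.1 as the software behind the scanner files. Per the file headers, median spot and local background signals are raw intensity in arbitrary units. The deposited processed signals are intensity values after background subtraction and dye normalization by that software, per the file headers. A log10 red-to-green ratio is also deposited and served only to check the dyes. The deposited series values match, on a natural log scale, the mutant-to-wild-type ratio of processed signals plus a constant (0.0812 log2 on each array, from 0.0811 at the 5th to 0.0813 at the 95th percentile of probes).

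Median signals were corrected with normexp (offset 50), which pulls the ratios of dim genes towards 0, and loess-normalized within arrays. Control spots and outlier-marked spots (190 to 399 of 37685 per array) had weight 0, and the latter were left out. A probe was kept where it was well above background in all 4 channels of either genotype with at least 3 ratios, using the brightest probe per gene. Median signals were 120.5 to 136 units in green and 166 to 204 in red, 58.7% to 60.9% of spots were well above background, and the number of arrays limits the precision. Genotype plus a dye effect per gene was fitted to the log2 ratios with limma 3.58.1 under R 4.3.3. It used eBayes and Benjamini-Hochberg adjustment over 19314 genes, two-sided, threshold 0.05. Each SE of a fitted ratio is the moderated one from eBayes, after the dye effect is taken out. It is not the spread of the 4 array ratios, which is wider for genes with a dye effect. The fit was also run on simulated data with noise drawn independently for each gene and array. That setting need not match these arrays, and no conclusion is drawn from it. All arrays shared 1 slide and 1 scan. Ratios correlated across genes at 0.795 and 0.803 between arrays of one dye orientation and at 0.346 to 0.494 between orientations.

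Named genes were the 6 family members, the called members of 5 lists, called neighbours, and the 2 genes most like each member. The members and lists were chosen with earlier results of these data known. Symbols and gene order came from the RefSeq table of TAIR10.1, which held 19217 of the tested loci. Lists are described by counts and medians. Alternatives covered background, normalization, signal, dye term, filters, probes and leaving out each replicate.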

Additional observations from a re-analysis of the deposited data

How the results depend on the processing

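HSFB1 and HSFB2B stayed past the threshold in the same direction under all 15 alternatives, from -6.38 to -5.77 and from -6.22 to -4.56. Among the intact genes, HSFB3 passed under the series values uncentred (0.238) and none of HSFB2A, HSFB4 or HSFC1 passed under any alternative. The ratio of HSFB2A turned negative with offset 0 (-0.00243), median centring (-0.126) and the series values centred (-0.000613), and ran from -0.0517 to 0.0543 when single replicates were left out, and HSFC1 turned to 0.00386 in the series values uncentred. The cause of these moves was not tested.

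Over all genes, 3208 were higher and 2539 lower as reported. Median centring gave 1159 and 1388, the series values centred 2092 and 1526, the series values uncentred 4774 and 1203, and no dye term 1242 and 584. Leaving out single replicates gave 1438 to 3216 higher and 756 to 2593 lower. Of the calls 55.8% were higher as reported, 45.5% with median centring, 79.9% in the series values uncentred, 68.0% without the dye term, and 65.5% without replicate 3.

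For the class A genes 2 were called for centred series values, for processed signals and with no dye term, and their median was 0.175 in the series values uncentred. For the linked genes 2 were called without the dye term and 2 to 3 with single replicates left out. Their median was -0.079 after median centring, 0.109 for processed signals, 0.190 for uncentred and 0.106 for centred series values, 0.108 without the filter, -0.0477 with both channels required, and 0.0686 to 0.155 with single replicates left out. For the corepressors 1 was called for processed signals, 1 for uncentred series values, and 0 to 1 with single replicates left out, and their median was 0.122 in the series values uncentred. Root patterning calls were 0 after median centring, 0 with no dye term, 2 in both forms of the series values, and 0 to 4 with single replicates left out. Neighbour calls were 7 with median centring and in the series values centred, 3 without the dye term, and 5 to 14 with single replicates left out. The neighbour median was -0.0357 without background correction, -0.057 after median centring, -0.0599 for processed signals, 0.0228 for uncentred and -0.0611 for centred series values.

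Genes close to a member that are near 0 changed sign in places. FANCM stood at -0.0251 without background correction, -0.107 for processed signals, -0.0255 for uncentred and -0.109 for centred series values, and from -0.0368 to 0.0592 with single replicates left out. AT2G31090 stood at -0.0447 after median centring, -0.00773 for processed signals and -0.0105 for centred series values. AT4G35530 stood at 0.047 for uncentred series values, and from -0.0439 to 0.0435 with single replicates left out. AT1G30550 stood at 0.0669 for uncentred series values, and from -0.104 to 0.00691 with single replicates left out. Each array already pairs the genotypes, so the fit to the array ratios was itself the paired analysis. No array lay far from the other 3 for any of 36 named genes with 4 ratios.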
